A study of Mus musculus with 10 samples.

Results

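The Ms4a genes described here are Ms4a4b, Ms4a4c, Ms4a6b, Ms4a6c, Ms4a6d and Ms4a7, chosen by symbol as the Ms4a membrane proteins of myeloid cells, and all 6 were present among the 19178 gene rows of the count table. Poly(A) RNA of mouse dendritic cells, which take up antigen and prime T cells, made up 10 libraries, read in pairs of 150 bp. Mice lacking normal Ptbp1 gave 5 of them (Ptbp1-deficient), and wild-type (WT) mice gave the other 5, all at an age of 8 to 10 weeks. The product of Ptbp1 binds pyrimidine-rich RNA and regulates splicing, and the study asked how RNA of dendritic cells differs without it. The labels give neither the tissue the cells came from, the sex of the mice, nor how Ptbp1 was made deficient and in which cells. Whether every library stands for its own animal is not stated, and p-values here cover library-to-library spread, which may be technical.

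Counts in genes totalled 61759378 to 92697815 in Ptbp1-deficient libraries and 50516163 to 66153758 in WT libraries. Levels are TMM-normalized CPM (counts scaled to library size), and fold changes are Ptbp1-deficient over WT. Adjusted p-values are Benjamini-Hochberg values of the edgeR quasi-likelihood fit to 18248 genes. A gene was called at an adjusted p under 0.05, and of all genes tested 45.0% were called, 21.9% higher and 23.1% lower in Ptbp1-deficient libraries. Ptbp1 stood at 73.2 to 75.7 CPM in Ptbp1-deficient libraries and 259 to 312 CPM in WT libraries (log2 fold change -1.98, SE 0.05, adjusted p = 1.9e-09). The dendritic cell genes Cd74, H2-Ab1, Itgax and Flt3 were abundant in both groups. The lowest mean of these 4 was that of Flt3, at 558 CPM in Ptbp1-deficient libraries and 604 CPM in WT libraries. They were not all level: Itgax was at 2168 CPM in Ptbp1-deficient libraries and 1521 CPM in WT libraries (adjusted p = 8.9e-05). Of the 6 dendritic cell markers listed, 2 were called higher and 1 lower. Libraries of 1 genotype were not evenly alike. Over 12 tissue macrophage markers the mean log2 CPM was 4.39 and 4.55 in Ptbp1-deficient replicates 2 and 1 and 6.12 to 6.33 in Ptbp1-deficient replicates 3, 4 and 5. It was 7.76 and 8.34 in WT replicates 1 and 5 and 6.76 to 6.85 in WT replicates 2, 3 and 4. Results are therefore also given without Ptbp1-deficient replicates 1 and 2, and without WT replicates 1 and 5. In bulk RNA, fewer cells of a type and less RNA per cell cannot be told apart.

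Ms4a proteins are small proteins that span the membrane several times. The best known are CD20 of B cells, encoded by Ms4a1, and the beta chain of the high-affinity IgE receptor, encoded by Ms4a2, and the family is known for modulating signals of receptors that sit beside it in the membrane. Mouse Ms4a4 and Ms4a6 genes lie in tandem copies, some of which have no single human counterpart. Ms4a4b and Ms4a6b are known from T cells, where their products associate with the co-stimulatory receptor GITR. Ms4a6d and Ms4a7 are known from macrophages, and Ms4a7 also from microglia.

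All 6 lie on chromosome 19 of GRCm38 within the Ms4a cluster. In GENCODE M21 Ms4a7 (ENSMUSG00000024672) runs from 11321039 to 11336146 on the minus strand. Then follow, on the plus strand, Ms4a4c (ENSMUSG00000024675, 11404770 to 11427246), Ms4a4b (ENSMUSG00000056290, 11443553 to 11467055), Ms4a6c (ENSMUSG00000079419, 11469366 to 11482192) and Ms4a6b (ENSMUSG00000024677, 11516512 to 11531256). Ms4a6d (ENSMUSG00000024679, 11586604 to 11604849) is on the minus strand again. The members are close copies, which bears on how firmly reads can be told apart. Coding sequences of Ms4a4b and Ms4a4c were identical at 91.7% of 678 aligned bases, those of Ms4a6b and Ms4a6c at 86.4% of 641, and those of Ms4a6b and Ms4a6d at 81.8% of 729. Ms4a7 was identical to the others at 65.7% to 68.9%. Of the 50-base stretches in the transcript with the longest coding sequence, 11.3% of Ms4a6c, 8.48% of Ms4a4c, 5.89% of Ms4a6b, 4.19% of Ms4a4b, 2.92% of Ms4a6d and 0% of Ms4a7 also occur in a transcript of another gene. No 150-base stretch of any member does. The deposited table sets reads with several alignments apart from the gene rows, so counts of the copies are uncertain to that extent.

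The 150 bases before the start site are shown for the 5 members with a promoter window in the RefSeq table (GRCm38.p6), because the copies also share sequence there. The stretches are chr19:11443408-11443557, chr19:11407511-11407660, chr19:11518409-11518558 and chr19:11469218-11469367 on the plus strand and chr19:11336147-11336296 on the minus strand, each written 5′ to 3′ along its gene, with capitals marking GGAAGT or its reverse complement, the core bound by ETS factors such as PU.1.
Ms4a4b: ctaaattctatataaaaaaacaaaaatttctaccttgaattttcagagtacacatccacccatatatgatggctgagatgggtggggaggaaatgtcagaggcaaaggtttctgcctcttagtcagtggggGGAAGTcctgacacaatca
Ms4a4c: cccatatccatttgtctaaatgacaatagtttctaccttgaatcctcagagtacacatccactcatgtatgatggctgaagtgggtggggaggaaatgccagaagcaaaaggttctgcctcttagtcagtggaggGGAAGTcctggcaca
Ms4a6b: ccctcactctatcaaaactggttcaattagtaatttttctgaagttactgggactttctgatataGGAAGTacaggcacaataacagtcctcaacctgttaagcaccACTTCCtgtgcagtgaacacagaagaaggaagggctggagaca
Ms4a6c: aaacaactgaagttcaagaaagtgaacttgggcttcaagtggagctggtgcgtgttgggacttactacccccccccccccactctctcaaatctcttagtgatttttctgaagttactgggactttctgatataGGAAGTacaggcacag
Ms4a7: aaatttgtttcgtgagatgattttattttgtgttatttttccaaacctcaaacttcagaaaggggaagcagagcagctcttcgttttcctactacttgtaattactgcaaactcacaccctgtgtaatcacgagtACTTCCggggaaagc

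Over the windows of 250 bases before to 50 after the start, Ms4a4b and Ms4a4c were identical at 80.9% of 282 aligned bases and Ms4a6b and Ms4a6c at 85.9% of 220. GGAAGT, searched on both strands, was found in 23.8% of the 32851 windows in the table. Counted by gene rather than by window, all 5 members with a window had it. The copies share sequence, so their matches are not independent, and enrichment was not tested. GGAAGT lay 15 bases before the start in Ms4a4c and Ms4a7, 16 before it in Ms4a6c and 19 before it in Ms4a4b. In Ms4a6b it lay 85 and 43 bases before the start, all counted from the base of the match farthest from the start. Ms4a6c had a further match after the start, and a further window of Ms4a7 had 0 matches. The core of the interferon-stimulated response element was found in 0 of the 5 (3.44% of all windows). TGANTCA, bound by AP-1, was in Ms4a4b, after the start, and in a further window of Ms4a7 (7.81% of all windows). Motifs were searched on both strands. The RefSeq start of Ms4a4c lies 2891 bases, and that of Ms4a6b 2047 bases, from the GENCODE gene start.

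Of the 6 members, 4 were called higher in Ptbp1-deficient libraries, 0 were called lower, and 3 had no overlap between groups. Among all genes tested, 21.9% were called higher and 23.1% lower, and 17.2% lay above WT and 16.2% below it without overlap. The median log2 fold change was 0.59 over the 6 members and -0.03 over all genes tested. The rises were graded: 3.21-fold for Ms4a4b, 2.08-fold for Ms4a4c, 1.62-fold for Ms4a6b and 1.102-fold for Ms4a6c. Ms4a6d and Ms4a7 did not pass the test and varied more among the Ptbp1-deficient libraries than between the groups. Without WT replicates 1 and 5, Ms4a6d took the place of Ms4a6c among 4 members called higher (21.7% of all genes higher, 22.3% lower). Without Ptbp1-deficient replicates 1 and 2, every member other than Ms4a6c was called higher, 5 in all (19.3% of all genes higher, 20.6% lower). With the mean of the macrophage markers as a covariate the same 5 were called higher (16.7% of all genes higher, 16.7% lower). DESeq2 called 4 (23.1% of all genes higher, 23.9% lower). The libraries left out were chosen by their macrophage markers. WT replicates 1 and 5 had the highest Ms4a6d of their group, and Ptbp1-deficient replicates 1 and 2 the lowest Ms4a6d and Ms4a7 of theirs. Leaving these libraries out raises those fold changes in itself, so the added calls are no separate support.

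**Figure D1:**
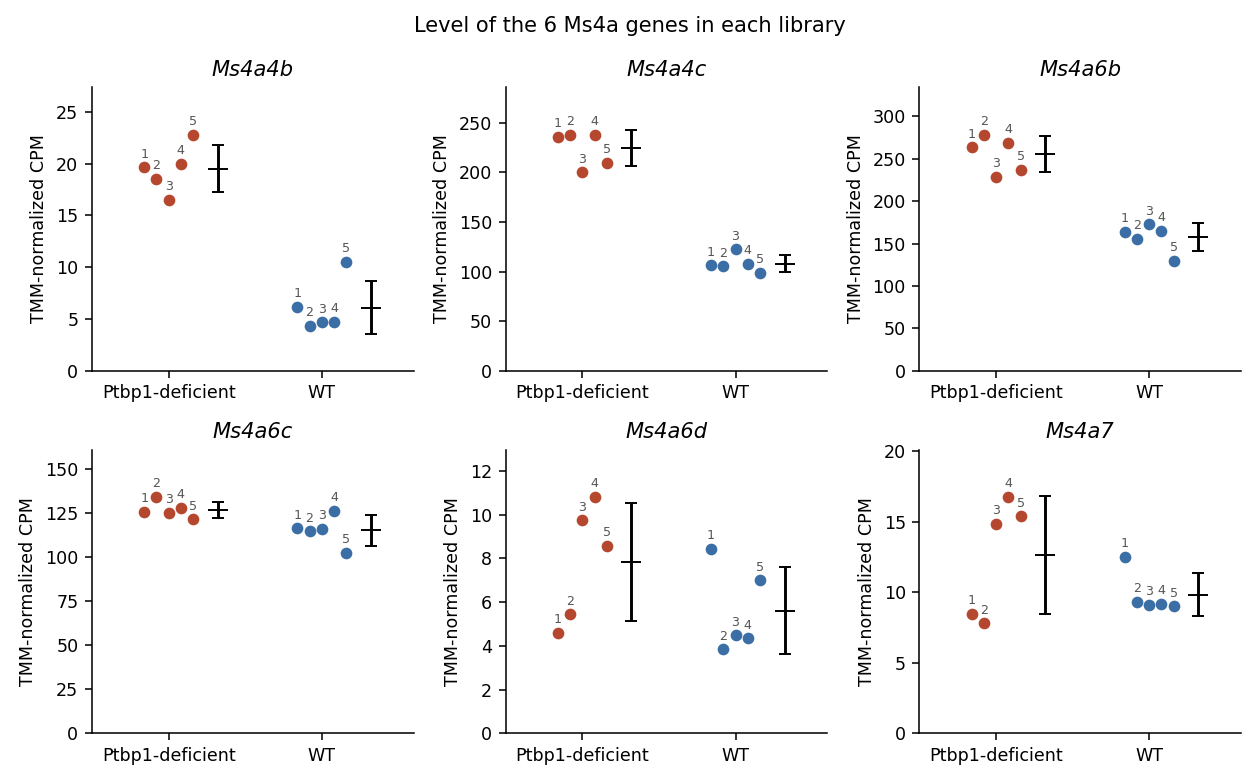
TMM-normalized CPM of each of the 6 genes in the 5 Ptbp1-deficient and 5 WT libraries, with points numbered by replicate and, beside them, the mean and SD. For Ms4a4b, Ms4a4c and Ms4a6b all Ptbp1-deficient points lie above all WT points, while Ms4a6d and Ms4a7 split within the Ptbp1-deficient group, replicates 3, 4 and 5 lying above replicates 1 and 2.

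Ms4a4b had 19.6, 18.5, 16.5, 20.0 and 22.8 CPM in Ptbp1-deficient replicates 1 to 5, against 6.17, 4.36, 4.66, 4.71 and 10.5 CPM in WT replicates 1 to 5. Every Ptbp1-deficient library was above every WT library, and WT replicate 5 was the highest of its group. The means were 19.5 ± 2.29 CPM and 6.08 ± 2.57 CPM (SD, n = 5 each), a log2 fold change of 1.68 (SE 0.22, adjusted p = 9.3e-05). Without WT replicates 1 and 5 it was 2.09 (adjusted p = 1.8e-07), and without Ptbp1-deficient replicates 1 and 2 it was 1.70 (adjusted p = 9.7e-04). Because Ms4a4b is a T cell gene, markers of lymphocytes are given beside it. NK cell markers summed to 72.0 to 130.01 CPM in Ptbp1-deficient libraries and 2.47 to 47.8 CPM in WT libraries. WT replicate 5 was the WT library at 47.8 CPM. Of 8 NK cell markers 5 were called higher and 0 lower, where 21.9% of all genes were called higher. The granzyme gene Gzma was at 53.1 ± 14.7 CPM in Ptbp1-deficient libraries and 4.31 ± 7.22 CPM in WT libraries (adjusted p = 0.0035). The NK receptor gene Ncr1, named after its values were seen, was at 5.92 ± 1.83 CPM in Ptbp1-deficient libraries and 1.37 ± 1.30 CPM in WT libraries (SD, n = 5 each). Klrb1c (adjusted p = 0.18), Klra8 (adjusted p = 0.41) and Eomes (adjusted p = 0.29) of the same list overlapped between groups and were not called. T cell markers summed to 53.9 to 64.6 CPM in Ptbp1-deficient libraries and 51.2 to 113.8 CPM in WT libraries, and of 9 markers 0 were called higher and Il7r alone lower. Without WT replicates 1 and 5, 5 T cell markers and all 8 NK cell markers were called higher, where 21.7% of all genes were. The part of these cells in the Ms4a4b difference was not tested.

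Ms4a4c, the near copy of Ms4a4b, had 236, 238, 200.1, 238 and 209.7 CPM in Ptbp1-deficient replicates 1 to 5, against 106, 105, 122, 108 and 98.7 CPM in WT replicates 1 to 5. The groups were far apart, the lowest Ptbp1-deficient library exceeding the highest WT library. The means were 224 ± 18.2 CPM and 108 ± 8.72 CPM (SD, n = 5 each), a log2 fold change of 1.05 (SE 0.07, adjusted p = 6.6e-07). Without WT replicates 1 and 5 it was 1.00 (adjusted p = 1.6e-06), and without Ptbp1-deficient replicates 1 and 2 it was 1.00 (adjusted p = 1.4e-05). With the macrophage marker mean as a covariate the log2 fold change of Ms4a4c was 0.90 (adjusted p = 2.2e-05).

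Ms4a6b, the most abundant member in CPM, had 263, 279, 229, 269 and 237 CPM in Ptbp1-deficient replicates 1 to 5, against 163, 156, 173, 165 and 129.9 CPM in WT replicates 1 to 5. Here too the groups did not overlap, and WT replicate 5 was the lowest library. The means were 255 ± 21.3 CPM and 157 ± 16.4 CPM (SD, n = 5 each), a log2 fold change of 0.70 (SE 0.08, adjusted p = 3.1e-05). It was 0.63 without WT replicates 1 and 5 (adjusted p = 2.3e-05) and 0.64 without Ptbp1-deficient replicates 1 and 2 (adjusted p = 4.3e-04).

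Ms4a6c, a gene known from monocytes that lies between Ms4a4b and Ms4a6b, barely differed. It had 125, 134, 125, 128 and 121 CPM in Ptbp1-deficient replicates 1 to 5, against 116, 115, 116, 126 and 102 CPM in WT replicates 1 to 5. The groups overlapped through WT replicate 4. The means were 127 ± 4.66 CPM and 115 ± 8.54 CPM (SD, n = 5 each), a log2 fold change of 0.14 (SE 0.05, adjusted p = 0.049). The call was lost without WT replicates 1 and 5 (log2 fold change 0.09, adjusted p = 0.14), without Ptbp1-deficient replicates 1 and 2 (0.12, adjusted p = 0.16) and on leaving out any 1 library other than WT replicate 4, and it held under 7 of 22 other settings.

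Ms4a6d, which encodes a macrophage protein that works with the receptor VSIG4 to restrain inflammasome activity in mice, was a low transcript. It had 4.60, 5.44, 9.74, 10.8 and 8.56 CPM in Ptbp1-deficient replicates 1 to 5, against 8.43, 3.84, 4.48, 4.34 and 6.999 CPM in WT replicates 1 to 5. The high libraries were Ptbp1-deficient replicates 3, 4 and 5 and WT replicates 1 and 5, and the groups overlapped. The means were 7.83 ± 2.70 CPM and 5.62 ± 2.00 CPM (SD, n = 5 each), with a log2 fold change of 0.48 (SE 0.28, adjusted p = 0.18). The log2 fold change was 0.78 without Ptbp1-deficient replicates 1 and 2 (adjusted p = 0.033), 0.90 without WT replicates 1 and 5 (adjusted p = 0.015) and 1.46 with the macrophage marker mean as a covariate (adjusted p = 2.1e-04). The marker mean itself differs between the genotypes without overlap, so its part and that of genotype cannot be fully told apart.

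Ms4a7 had 8.47, 7.81, 14.9, 16.8 and 15.4 CPM in Ptbp1-deficient replicates 1 to 5, against 12.5, 9.32, 9.11, 9.16 and 8.997 CPM in WT replicates 1 to 5. Ptbp1-deficient replicates 3, 4 and 5 were above all WT libraries, whereas Ptbp1-deficient replicates 1 and 2 were below all of them. The means were 12.7 ± 4.19 CPM and 9.82 ± 1.52 CPM (SD, n = 5 each), with a log2 fold change of 0.37 (SE 0.21, adjusted p = 0.18). It was 0.47 without WT replicates 1 and 5 (adjusted p = 0.13), 0.67 without Ptbp1-deficient replicates 1 and 2 (adjusted p = 0.0019) and 1.00 with the macrophage marker mean as a covariate (adjusted p = 0.0022).

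The split of Ms4a6d and Ms4a7 among Ptbp1-deficient libraries ran with the macrophage markers, but among WT libraries that of Ms4a7 did not. Ms4a6d and Ms4a7 each averaged 1.93 times as much in Ptbp1-deficient replicates 3, 4 and 5 as in Ptbp1-deficient replicates 1 and 2, against 0.91 times for Ms4a4c, 0.90 times for Ms4a6b, 0.96 times for Ms4a6c and 1.04 times for Ms4a4b. In WT replicates 1 and 5, set against WT replicates 2, 3 and 4, Ms4a6d averaged 1.83 times as much, Ms4a4b 1.82 times and Ms4a7 1.17 times, while Ms4a4c, Ms4a6b and Ms4a6c averaged 0.89 to 0.92 times. WT replicate 5, with the highest marker mean of all libraries, had the lowest Ms4a7 of the WT group. Macrophage markers summed to 623 to 1315 CPM in Ptbp1-deficient libraries and 1748 to 4609 CPM in WT libraries. Of 12 markers 0 were called higher and 10 lower, where 23.1% of all genes were called lower. Those called lower numbered 8 without WT replicates 1 and 5 and 9 without Ptbp1-deficient replicates 1 and 2. Csf1r, the receptor on which macrophages depend, was at 149 ± 41.0 CPM in Ptbp1-deficient libraries and 490 ± 206 CPM in WT libraries (SD, n = 5 each, adjusted p = 3.5e-04). Both genes in Ptbp1-deficient replicates 3, 4 and 5 exceeded all WT libraries. The macrophage marker mean of every WT library was above that of every Ptbp1-deficient library. The covariate fit therefore cannot separate marker level from genotype, and the part of macrophages in these levels was not tested.

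**Figure D2:**
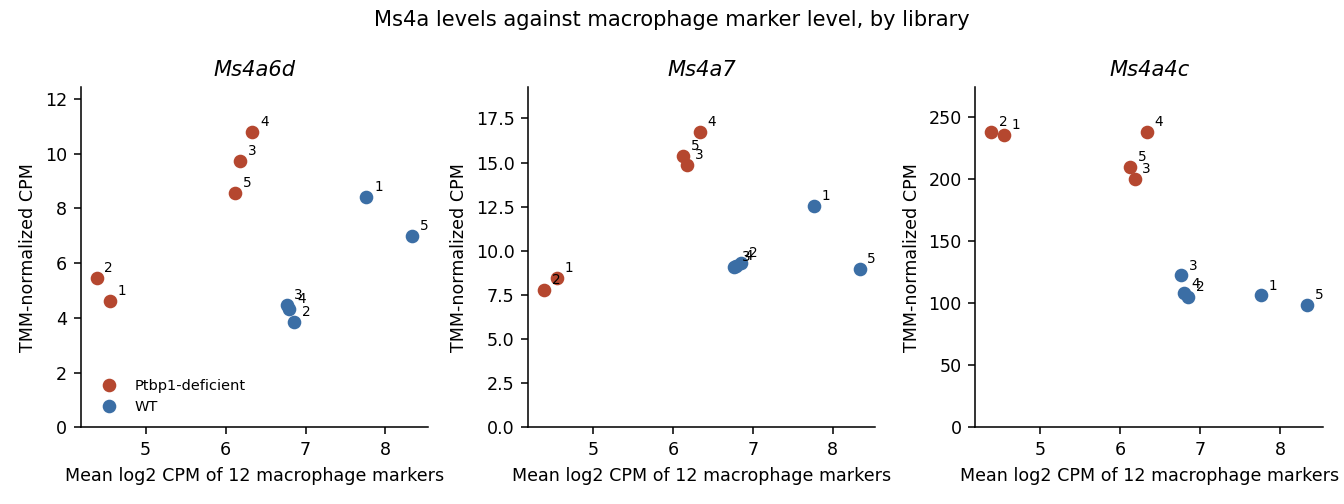
TMM-normalized CPM of Ms4a6d, Ms4a7 and Ms4a4c in each library, numbered by replicate, against the mean log2 CPM of 12 tissue macrophage markers. In Ms4a6d, Ptbp1-deficient replicates 3, 4 and 5 and WT replicates 1 and 5, with the higher marker means of their genotype, have the higher levels, while Ms4a4c is higher in all 5 Ptbp1-deficient libraries at either marker level.

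Unequal change of the members was tested with their ratios, which within 1 library do not depend on scaling between libraries. Of 15 pairs, the log2 ratio differed between genotypes for 7 by an exact two-sided permutation test over all assignments of the libraries to groups, adjusted over the 15 pairs, and 6 had no overlap. The 15 pairs reuse the same 6 genes, so they are not separate results. Ratios of other gene pairs were not computed. Of all genes tested singly, 45.0% were called, and 17.2% lay above WT and 16.2% below it without overlap, so differing ratios may be common. None passed that adjustment without WT replicates 1 and 5 or without Ptbp1-deficient replicates 1 and 2, where 10 and 7 pairs had an unadjusted exact p under 0.05. Ms4a6b over Ms4a6c had a mean log2 ratio of counts of 1.01 ± 0.087 in Ptbp1-deficient libraries and 0.45 ± 0.090 in WT libraries (difference 0.56, exact p = 0.00794, the smallest this design gives, adjusted p = 0.0198). Ms4a4c over Ms4a6c stood at 0.82 ± 0.094 in Ptbp1-deficient libraries and -0.09 ± 0.11 in WT libraries (difference 0.91, exact p = 0.00794, adjusted p = 0.0198). Ms4a4c over Ms4a6b was at -0.18 ± 0.026 in Ptbp1-deficient libraries and -0.54 ± 0.093 in WT libraries (difference 0.35, exact p = 0.00794, adjusted p = 0.0198). The 2 near copies Ms4a4b and Ms4a4c did not pass: their log2 ratio was -3.53 ± 0.19 in Ptbp1-deficient libraries and -4.23 ± 0.60 in WT libraries (difference 0.70, exact p = 0.0397, adjusted p = 0.0661). Ratios among Ms4a6c, Ms4a6d and Ms4a7 had adjusted p-values of 0.335 to 0.556.

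**Figure D3:**
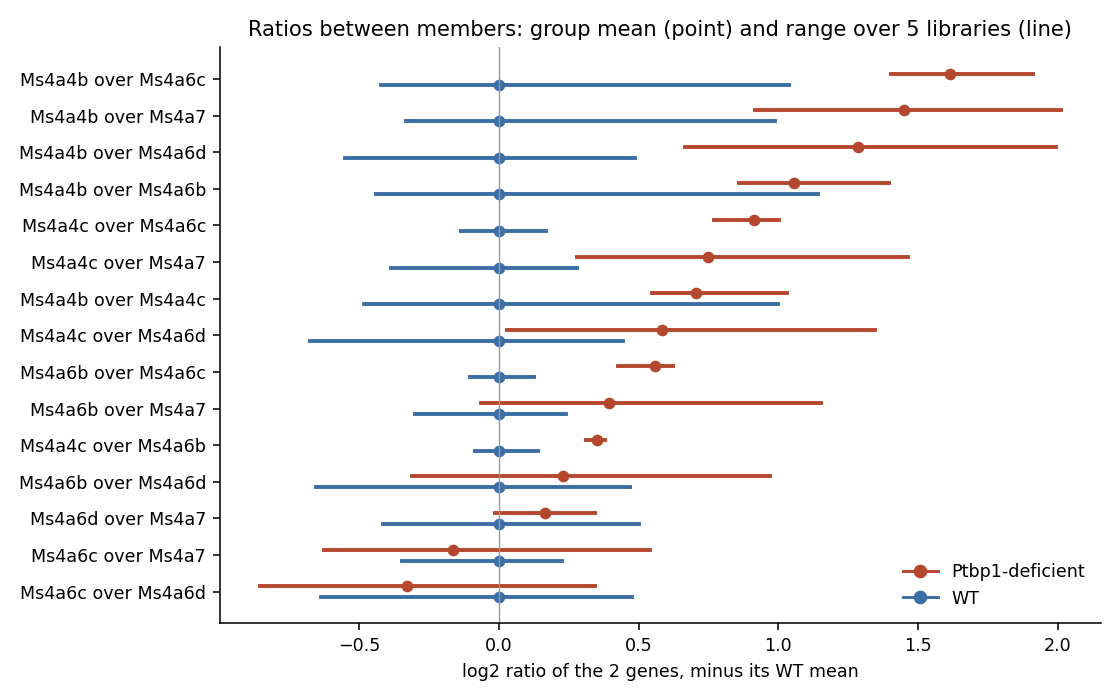
Log2 ratio of counts for each of the 15 pairs, shifted so that its WT mean is 0, with the group mean as a point and the range over 5 libraries as a line (Ptbp1-deficient upper in red, WT lower in blue). Pairs of Ms4a4b, Ms4a4c or Ms4a6b with Ms4a6c show ranges that do not meet, while pairs among Ms4a6c, Ms4a6d and Ms4a7 overlap.

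The make-up of the members' RNA differed accordingly. Summed over the 6, their level was 646 ± 39.9 CPM in Ptbp1-deficient libraries and 402 ± 28.1 CPM in WT libraries (SD, n = 5 each). Ms4a4c made up 34.7% ± 0.87 of that sum in Ptbp1-deficient libraries and 26.9% ± 1.18 in WT libraries, Ms4a6c made up 19.6% ± 0.86 in Ptbp1-deficient libraries and 28.6% ± 1.21 in WT libraries. Ms4a6b made up 39.4% ± 1.01 in Ptbp1-deficient libraries and 39.0% ± 1.53 in WT libraries. These shares follow CPM, which favour long transcripts.

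Per length, in the deposited FPKM values, the order was different. In WT libraries Ms4a6c led at 105 ± 9.10 FPKM, followed by Ms4a4c at 56.2 ± 5.80, Ms4a6b at 42.4 ± 4.54, Ms4a4b at 5.08 ± 1.85, Ms4a7 at 4.51 ± 1.03 and Ms4a6d at 3.84 ± 1.43 FPKM. The last 3 overlapped among WT libraries. In Ptbp1-deficient libraries Ms4a6c stood at 124 ± 2.08 FPKM and Ms4a4c at 112 ± 8.79, while Ms4a6b stood at 66.0 ± 5.63, Ms4a4b at 13.8 ± 1.66, Ms4a7 at 6.17 ± 2.32 and Ms4a6d at 5.08 ± 1.62 FPKM (SD, n = 5 each). Ms4a4c thus came close to Ms4a6c in Ptbp1-deficient libraries, at most 120.1 against at least 121 FPKM, and Ms4a7 and Ms4a6d overlapped. By limma on log2(FPKM + 1), the same 4 members were called higher and 0 lower, where 20.3% and 27.2% of 11968 genes were. The log2 fold change of Ms4a6c was 0.23 on that scale (adjusted p = 0.0068), and its groups did not overlap in FPKM.

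Of the 6 further Ms4a genes with a row, 0 were called higher and 3 lower. Over all genes tested 21.9% were called higher, 23.1% lower and 45.0% either way. The 3 of 6 are near the share called either way and above the share called lower, a difference not tested on 6 genes. Ms4a4a, a macrophage gene whose human counterpart associates with the fungal receptor dectin-1, had 1.69, 1.88, 2.73, 3.34 and 2.91 CPM in Ptbp1-deficient replicates 1 to 5, against 6.85, 3.88, 3.78, 5.18 and 5.96 CPM in WT replicates 1 to 5. It fell without overlap (log2 fold change -1.03, SE 0.22, adjusted p = 0.0029), though it lies between Ms4a7 and Ms4a4c, and the call was lost with the macrophage marker mean as a covariate (-0.31, adjusted p = 0.28). Ms4a8a fell by 2.23 on the log2 scale (adjusted p = 0.0033) on 5 to 110 counts per library, at 0.152 ± 0.071 CPM in Ptbp1-deficient libraries and 0.732 ± 0.583 CPM in WT libraries. Ms4a14 fell by 0.79 on the log2 scale (adjusted p = 0.032), at 1.36 ± 0.43 CPM in Ptbp1-deficient libraries and 2.35 ± 0.69 CPM in WT libraries, with overlap. The call was lost without Ptbp1-deficient replicates 1 and 2 (log2 fold change -0.50, adjusted p = 0.16), and on leaving out any 1 of Ptbp1-deficient replicates 1 and 2 and WT replicates 1, 2 and 3 (-0.76 to -0.66, adjusted p = 0.063 to 0.080). With that covariate neither Ms4a8a (-0.51, adjusted p = 0.52) nor Ms4a14 (-0.42, adjusted p = 0.43) passed. Ms4a1 stood at 32.1 ± 4.16 CPM in Ptbp1-deficient libraries and 37.1 ± 24.2 CPM in WT libraries (adjusted p = 0.62), with WT replicate 5 at 80.1 CPM. Ms4a4d, at 5 to 44 counts per library (adjusted p = 0.089), and Ms4a15 (adjusted p = 0.71) were near the lower limit of measurement. Ms4a2, Ms4a3, Ms4a5, Ms4a10, Ms4a12, Ms4a13 and Ms4a18 were not analysed here.

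**Figure D4:**
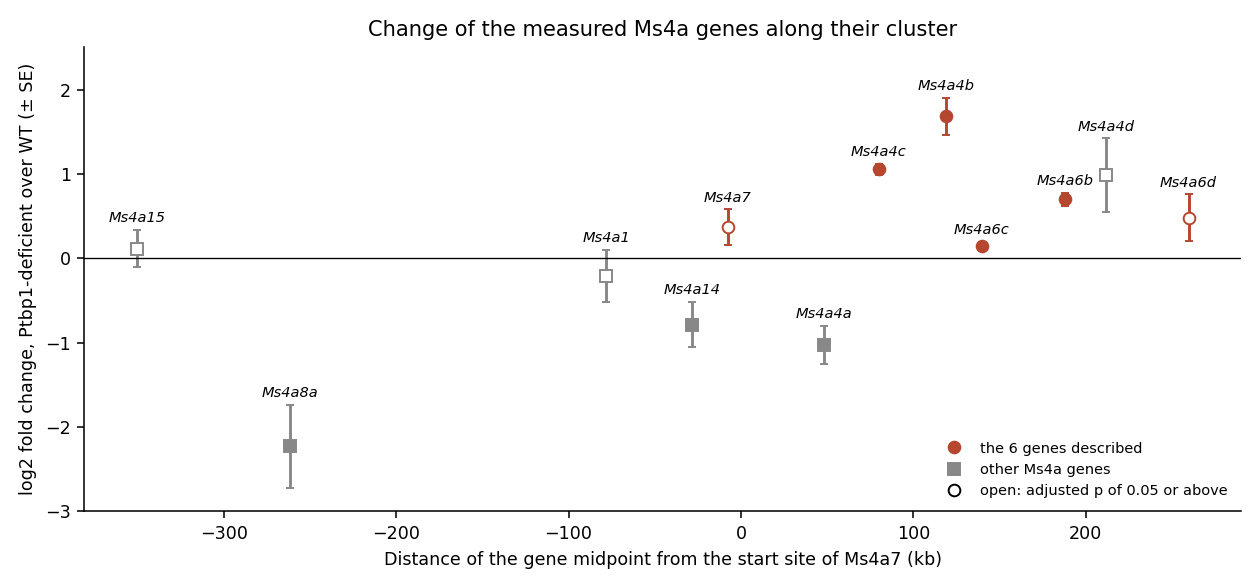
Log2 fold change (Ptbp1-deficient over WT, with SE) of the 12 measured Ms4a genes against the distance of the gene midpoint from the start site of Ms4a7, in kb. The called rises lie between Ms4a4c and Ms4a6b, from 1.68 for Ms4a4b to 0.14 for Ms4a6c, and the called falls are Ms4a4a, Ms4a14 and Ms4a8a.

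The related genes Tmem176a and Tmem176b, which encode membrane proteins of the same superfamily that are abundant in immature dendritic cells, fell strongly. Tmem176a was at 84.5 ± 10.3 CPM in Ptbp1-deficient libraries and 241 ± 25.7 CPM in WT libraries (log2 fold change -1.51, SE 0.09, adjusted p = 5.4e-07). Tmem176b was at 124 ± 14.8 CPM in Ptbp1-deficient libraries and 341 ± 43.2 CPM in WT libraries (log2 fold change -1.46, SE 0.10, adjusted p = 1.1e-06). Neither had overlap between groups, and Tmem176a fell by 1.74 on the log2 scale with the macrophage marker mean as a covariate (adjusted p = 2.4e-06). The genes overlap on opposite strands and the use of strand in counting is not given, so their reads may not have been told apart.

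Of 4 partners reported for Ms4a proteins with a row, 0 were called higher and 1 lower, a share near the 23.1% of all genes called lower. Clec7a, which encodes dectin-1, was at 44.7 ± 4.93 CPM in Ptbp1-deficient libraries and 62.9 ± 10.6 CPM in WT libraries (adjusted p = 0.0037). Tnfrsf18, which encodes GITR, was at 17.1 ± 1.43 CPM in Ptbp1-deficient libraries and 15.3 ± 1.22 CPM in WT libraries (adjusted p = 0.11). The inflammasome sensor gene Nlrp3 was at 139 ± 17.0 CPM in Ptbp1-deficient libraries and 148 ± 17.6 CPM in WT libraries (adjusted p = 0.44). Fcer1g, the signalling chain that Fc receptors share, was at 189 ± 12.2 CPM in Ptbp1-deficient libraries and 203 ± 21.9 CPM in WT libraries (adjusted p = 0.26). Vsig4, Trem2 and Fcer1a, and the markers Cpa3 and Treml4, were not analysed here. Interferon-stimulated genes, by contrast, were called higher in 14 of 15 cases (median log2 fold change 1.32), where 21.9% of all genes were. They summed to 2354 to 3083 CPM in Ptbp1-deficient libraries and 938 to 1066 CPM in WT libraries. Markers of cDC1, the dendritic cells that cross-present antigen, were called higher in 6 of 6 cases. Markers of cDC2, which prime CD4 T cells, were called lower in 6 of 6, or in 5 without WT replicates 1 and 5. Classical monocyte markers, Ccr2 among them, were called lower in 3 of 8 cases and higher in 0, but 3 were called higher and 2 lower without WT replicates 1 and 5, and 0 higher and 1 lower without Ptbp1-deficient replicates 1 and 2. Ly6c2 of that list was at 32.4 ± 4.93 CPM in Ptbp1-deficient libraries and 16.7 ± 18.9 CPM in WT libraries (adjusted p = 0.16). Nonclassical monocyte markers were called higher in 1 of 6 cases and lower in 3, plasmacytoid dendritic cell markers lower in 4 of 6, and B cell markers lower in 6 of 8, with sums of 413 to 485 CPM in Ptbp1-deficient libraries and 352 to 1676 CPM in WT libraries. Without WT replicates 1 and 5, plasmacytoid and B cell markers each had 2 called higher and 4 lower, where 21.7% of all genes were higher and 22.3% lower. Without Ptbp1-deficient replicates 1 and 2 only 2 B cell markers were called lower, where 20.6% of all genes were. No neutrophil, mast cell or basophil marker was called. Without WT replicates 1 and 5, however, all 7 neutrophil markers were called higher, where 21.7% of all genes were. How far a shift between these cell types contributed to the Ms4a levels was not tested.

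Within genotypes the members fell into sets. Deviations from the genotype mean in log2 CPM over 10 libraries had a Pearson r of 0.88 between Ms4a4c and Ms4a6b, 0.81 between Ms4a6b and Ms4a6c, and 0.83 between Ms4a6d and Ms4a7. Ms4a4b went against Ms4a6c, at -0.76. That value leans on WT replicate 5, with 10.5 CPM of Ms4a4b against 4.36 to 6.17 CPM in the other WT libraries. The same library had the lowest Ms4a6c, at 102 CPM against 115 to 126 CPM in the other WT libraries. The correlation without it was not computed. These values describe 10 libraries that share the depth and makeup noted above. Among 9655 genes with at least 5 CPM, those most like Ms4a6d were Pparg (r = 0.97), Crip2 (0.96) and C4b (0.96), and those most like Ms4a7 were Lipa (0.96), which encodes lysosomal acid lipase, Nlrp1b (0.96) and Pla2g2d (0.95). Between genotypes these genes did not change alike. Pparg (log2 fold change -0.97), Crip2 (-1.81) and Pla2g2d (-2.65) were called lower. C4b (2.78) and Lipa (0.25) were called higher, and Nlrp1b (0.30) was not called. Those most like Ms4a4c were Agps (0.95), Trmt1l (0.94) and Daglb (0.93), and those most like Ms4a6b were Uckl1 (0.98), Rp2 (0.96) and Cklf (0.95). Ktn1 (0.97), Syne2 (0.97) and Tmx1 (0.97) were most like Ms4a4b, each with its highest level in WT replicate 5. Tgs1 (0.92), Washc1 (0.92) and Trmt5 (0.91) were most like Ms4a6c.

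**Figure D5:**
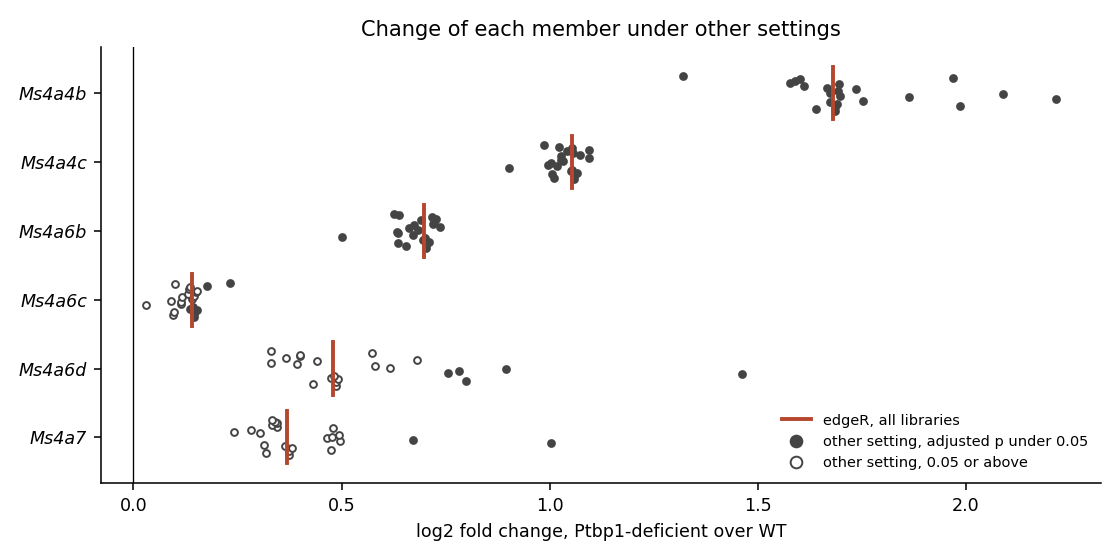
Log2 fold change of each member (Ptbp1-deficient over WT) under 22 other settings, as points filled where the adjusted p was under 0.05, with the edgeR result over all libraries as a vertical line. Ms4a4b, Ms4a4c and Ms4a6b are filled throughout, whereas Ms4a6c is filled in 7, Ms4a6d in 5 and Ms4a7 in 2 of the 22.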

How the data were processed

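RNA was extracted with TRIzol and made into poly(A) libraries read on an Illumina HiSeq, per the labels' protocols. HISAT2, StringTie and DESeq2 are named without versions per the submitters' processing notes, which list GRCh38, a human build, for a table keyed by mouse Ensembl genes. How reads were counted, and whether by strand, is not stated in the sources used here. The deposited table of raw counts has 19178 gene rows, each with at least 2 counts in every library, and 5 rows of reads outside genes (25.9% to 30.6% of counts), which were left out. The deposited FPKM values, calculated by the authors, cover 11978 rows with a minimum of 1.00, and 10 repeated identifiers were summed to 11968 genes. Symbols and coordinates came from GENCODE M21 (GRCm38), which matched 99.3% of identifiers.

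filterByExpr left 18248 genes. TMM normalization and edgeR 4.0.16's quasi-likelihood test (R 4.3.3), with genotype as the only term, gave the main result, and limma 3.58.1 was applied to log2(FPKM + 1). Ratios of members used counts plus 0.5 and exact permutation tests (scipy 1.17.1). Named genes were the 6 members, Ptbp1, all other Ms4a genes with a row, Tmem176a and Tmem176b, the 3 genes most like each member, and, of each list, genes among its 3 most abundant, of which some, like 1 of 4 promoter motifs searched, are not reported here. Ncr1, Klrb1c, Klra8, Eomes, Flt3 and Tnfrsf18 were named after their values were seen. The members, lists and motifs were chosen with earlier results of these data known. A check on simulated counts for the 18248 genes and this contrast recovered 12 of 50 altered genes at a fold of 1.25, 31 of 50 at 1.5, 45 of 50 at 2 and 50 of 50 at 4, with 5 false calls. Far fewer genes were altered in it than the 45.0% called in the data. Its libraries were also drawn without the splits seen within genotypes, so these rates need not hold for the real libraries. Alternatives were RLE and upper-quartile scaling, DESeq2 1.42.0, limma-voom with quality weights, other filters and thresholds, a replicate block, covariates, and leaving out libraries.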

Additional observations from a re-analysis of the deposited data

Results flagged for a closer look

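Across 40 groups of 5 libraries screened for a single library far from the rest, 8 were flagged, where chance flags about 1 in 20, and all were WT. WT replicate 1 stood apart in Ms4a7, at 12.5 CPM against 8.997 to 9.32 CPM in the other WT libraries, and at 6.29 FPKM against 3.72 to 4.33 FPKM. It also stood apart in Ms4a4d, at 0.219 CPM against 0.0969 to 0.121 CPM. WT replicate 5 stood apart in 5 cases. Its Ms4a4b was at 8.24 FPKM against 3.40 to 4.79 FPKM in the other WT libraries, and its Ms4a6c was at 89.8 FPKM against 107 to 113 FPKM. It had 80.1 CPM of Ms4a1 against 23.0 to 31.5 CPM, 1.76 CPM of Ms4a8a against 0.347 to 0.609 CPM, and 265 CPM of Tmem176b against 347 to 371 CPM.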

How the results depend on the processing

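Under 22 other settings each, Ms4a4b (log2 fold change 1.32 to 2.22), Ms4a4c (0.90 to 1.09) and Ms4a6b (0.50 to 0.74) stayed higher and past the threshold, Ms4a6c (0.03 to 0.23) stayed positive but passed in 7, and Ms4a6d (0.33 to 1.46) and Ms4a7 (0.24 to 1.00) stayed positive and passed in 5 and 2. Members called numbered 4 in the main result, 3 to 5 across the alternatives and 3 to 4 on leaving out 1 library, all higher. In the FPKM values 4 were called under each of 13 alternatives. Genes called higher numbered 2435 by limma on log2(FPKM + 1), against 3998, where fewer genes were tested. Member pairs that differed numbered 6 to 9 on leaving out 1 library, against 7 with all, but 0 without WT replicates 1 and 5 (10 at an unadjusted exact p under 0.05), 0 without Ptbp1-deficient replicates 1 and 2 (7 unadjusted) and 0 with the replicate block (0 unadjusted). In those smaller designs the smallest exact p is 0.0357, and with the block 0.0625, so pairing could not give a call. Same-numbered libraries deviated with r of -0.10 to 0.11, so the numbers were not taken as pairs, and the block changed no call of a member in edgeR (Ms4a6c adjusted p = 0.041), ended that of Ms4a14 (-0.79, adjusted p = 0.075) and moved genes called from 8214 to 7538. Ms4a1, at -0.21, reversed to 0.23 with limma-voom and 0.45 with the macrophage covariate. With the percentage of reads that matched no gene feature as a covariate it reversed to 0.018. It also reversed to 0.38 without WT replicates 1 and 5 (adjusted p = 0.0089) and 0.29 without WT replicate 5 (adjusted p = 0.047). Its range on leaving out 1 library was -0.35 to 0.29. Ms4a15, at 0.12, reversed to -0.10 with the macrophage covariate and -0.048 without WT replicates 1 and 5. The causes were not tested. Upper-quartile scaling moved the median of all genes to -0.07, from -0.03. Counts of 5 to 44 limit the precision of Ms4a4d. Ms4a6d had 198 to 942 counts per library, and its levels spread from 4.60 to 10.8 CPM within the Ptbp1-deficient group.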
